A study of Mus musculus with 8 samples.

Results

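The data describe wild-type cells of the developing mouse vertebral column, sorted for Sox9-driven EGFP. They were measured on 4 Illumina WG-6 arrays, 1 for each of 4 biological replicates. These 4 arrays, named Rep1 to Rep4, were chosen as those labelled WT among the 8 arrays of the series, and the other 4, from cells without Sox9, were not used for any value below. The vertebral column was dissected from embryos at E12.5 on a C57BL/6J;129 background. One Sox9 allele carried EGFP behind an internal ribosome entry site in the 3′ UTR, so that Sox9 itself stayed intact, and EGFP-positive cells were sorted from dissociated tissue. Each array therefore measures whatever a sort on Sox9-driven EGFP collected. The number of embryos behind each replicate is not given in the sources used here. In such bulk samples, fewer cells of a type and less RNA per cell cannot be told apart.

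Sox9 is an SRY-box transcription factor that starts the cartilage programme in mesenchyme leaving the sclerotome, the part of the somite that builds the vertebrae. With its relatives Sox5 and Sox6 it drives genes of the cartilage matrix, among them type II, type IX and type XI collagens. Sox9 is also made outside the skeleton, including neural progenitors of the spinal cord, neural crest, and the epithelium of several organs.

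The question was which transcripts these cells carried and how alike the replicates were. Of 46634 probes, after 9 control probes were left out, 18627 had a detection value above 0.95 on all 4 arrays, or 39.9%. The detection value is 1 minus the probability that a negative control probe would give such a signal. A further 23180 probes were detected on no array. A gene name could be given to probes of 8102 genes, and 4510 of these genes, or 55.7%, were detected on all 4 arrays. Named genes were detected on 3 arrays in 201 cases, on 2 in 216, on 1 in 316 and on none in 2859. The share of 55.7% is the background against which the gene lists below are read.

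The arrays were of similar depth. Mean intensity was 340.3 on Rep1, 364.2 on Rep2, 285.2 on Rep3 and 326.2 on Rep4, with a mean of 329.0 ± 33.1 (SD, n = 4). The share of probes detected on an array was 44.8% ± 0.852 (SD, n = 4). The 100 brightest probes gave 16.6% of the signal on Rep1, 15.3% on Rep2, and 16.5% on each of Rep3 and Rep4. Levels below are log2 intensities after background correction and quantile normalization, and a rank is a place among the 4510 detected genes, with 1 the brightest. Their median level was 8.51, and the middle 90% of genes lay between 5.61 and 12.25. A rank orders probe signals and not transcript copies: among 569 genes with several detected probes, the brightest and dimmest probe differed by a median of 1.65 on the log2 scale. The number of arrays limits the precision, and since there is 1 group, no difference between groups was tested.

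The 6 genes taken as markers of the chondrogenic lineage were all present, although Sox9 itself had no named probe. These genes (Col2a1, Col9a1, Col9a2, Mia, Wwp2 and Sox5) were detected on all 4 arrays, with a median level of 11.61 beside 8.51 for all detected genes. Col2a1, the main collagen chain of cartilage, had a deposited intensity of 7593 on Rep1, 7091 on Rep2, 7581 on Rep3 and 10367 on Rep4. Its normalized level was 13.00 ± 0.29 (SD, n = 4) at rank 131 of the 4510 genes. Rep4 was highest and Rep2 lowest for Col2a1, 1.60-fold apart, and its rank on a single array ran from 89 on Rep4 to 168 on Rep2.

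Col9a1, a chain of the type IX collagen that coats type II fibrils, had levels of 12.24, 12.45, 12.92 and 12.90 on Rep1 to Rep4. Rep3 and Rep4 were the high arrays for this gene, and its mean of 12.63 ± 0.33 (SD, n = 4) held rank 174. Col9a2, which encodes another chain of the same collagen, read 10.23, 10.38, 10.29 and 10.74. Only Rep4 stood above the others there, and the mean was 10.41 ± 0.23 (SD, n = 4) at rank 924. Mia, which encodes a small protein secreted by chondrocytes, read 10.29, 9.94, 10.98 and 10.99. It spread the most among the 6 markers, with an SD of 0.52 (n = 4) around 10.55 and 2.07-fold between Rep4 and Rep2.

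Wwp2, a ubiquitin ligase gene known as a Sox9 target in cartilage, read 12.11 on Rep1, 12.05 on Rep2, 12.67 on Rep3 and 12.73 on Rep4. Its mean of 12.39 ± 0.36 (SD, n = 4) held rank 208. Sox5, the partner of Sox9, read 10.76, 10.48, 11.06 and 11.02, a mean of 10.83 ± 0.27 (SD, n = 4) at rank 708. The 2 detected probes of Sox5 and of Col2a1 were represented by the brighter. The mean over the 6 markers was 11.42 on Rep1, 11.33 on Rep2, 11.83 on Rep3 and 11.95 on Rep4, a range of 1.54-fold. Each of the 6 was highest on Rep3 or Rep4 and lowest on Rep1 or Rep2. Over all detected genes, Rep3 was highest for 24.5% and Rep4 for 21.2%, while Rep1 was lowest for 18.8% and Rep2 for 35.9%.

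**Figure D1:**
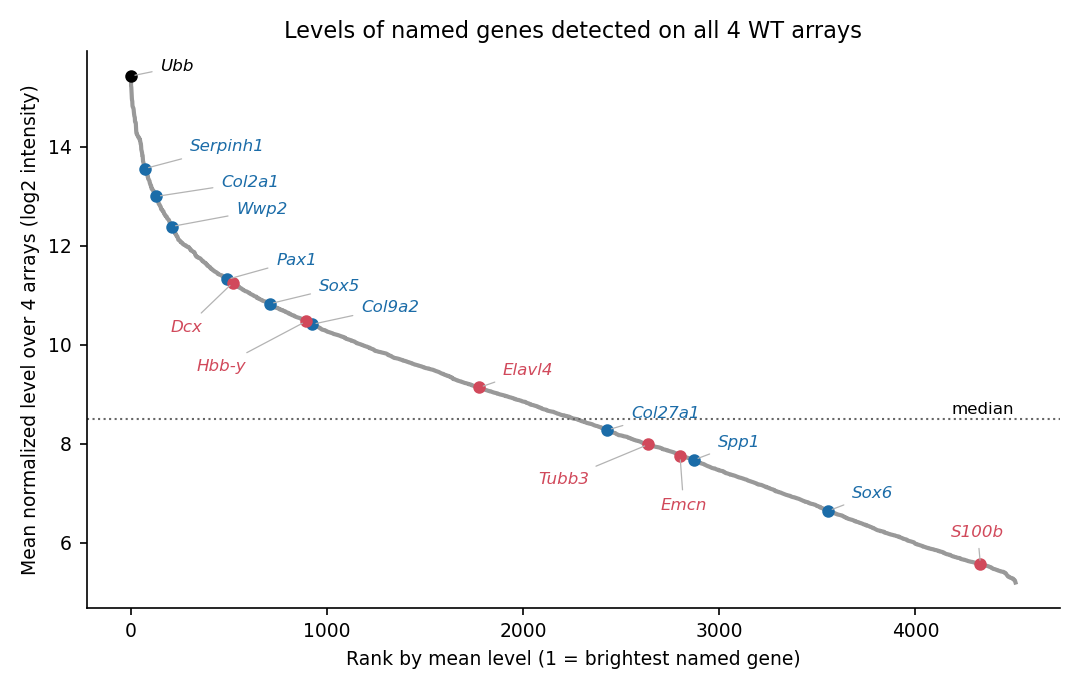
Mean normalized level (log2 intensity, vertical axis) of the 4510 named genes detected on all 4 WT arrays against their rank (horizontal axis), with skeletal genes marked in blue, genes of other cell types in red and Ubb in black. Col2a1 at rank 131 and Serpinh1 at rank 71 lie on the steep left part of the curve, while Dcx of neurons at rank 521 lies close to Pax1 at rank 491.

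Beyond the markers, the cartilage matrix list held 8 genes with a named probe, of which 5 were detected on all 4 arrays, a share of 62.5% beside the background of 55.7%. The 5 were Col2a1, Col9a1, Col9a2, Mia and Col27a1. Col27a1, a fibrillar collagen of the growth cartilage, had a level of 8.28 ± 0.36 (SD, n = 4), near the median of all genes. Its values of 7.98 and 7.96 on Rep1 and Rep2 lay below the 8.54 and 8.64 of Rep3 and Rep4, so that the spread followed that of Col2a1 and Wwp2. Col11a1, a chain of the type XI collagen inside cartilage fibrils, was detected on 3 arrays, with deposited intensities of 11.2, 31.1, 25.6 and 22.3 on Rep1 to Rep4. Matn3, a matrilin, and Prg4, the lubricin of joint surfaces, were detected on none. The list mean was 10.73, 10.68, 11.16 and 11.32 on Rep1 to Rep4, and 4 of the 5 genes were lower on both Rep1 and Rep2 than on both other arrays.

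Genes of proteoglycans and of sulfation were detected more often than the background. In the proteoglycan and sulfation list, 10 of 11 genes were detected on all 4 arrays and the remaining gene, Ncan, on 3. The glypican Gpc1 stood at 12.22 ± 0.07 (SD, n = 4), decorin (Dcn) at 11.32 ± 0.12 (SD, n = 4), perlecan (Hspg2) at 10.24 ± 0.27 (SD, n = 4) and versican (Vcan) at 9.96 ± 0.15 (SD, n = 4). Papss2, an enzyme gene of sulfate activation for proteoglycans, read 7.05, 7.30, 7.73 and 7.77 on Rep1 to Rep4. Its lower values again came from Rep1 and Rep2.

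Collagens of soft connective tissue were detected in 10 of 12 cases. Col5a1, a chain that sets fibril diameter, had a level of 12.46 ± 0.23 (SD, n = 4) at rank 201. The type III chain Col3a1 stood at 11.70 ± 0.13 (SD, n = 4), and the type VI chains Col6a3 and Col6a1 at 11.55 ± 0.28 and 11.35 ± 0.30 (SD, n = 4). The type I genes Col1a2 and Col1a1, typical of fibroblasts and bone, were also detected, at 10.20 ± 0.12 and 10.16 ± 0.35 (SD, n = 4). Col13a1 was detected on 1 array and Col5a2 on none. Over these lists together, 14 of 17 measured collagen chains were detected on all 4 arrays.

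Serpinh1, the chaperone that folds procollagen, read 13.72, 13.31, 13.64 and 13.56 on Rep1 to Rep4. At rank 71 it was the only gene of the matrix lists among the 100 brightest, and its SD of 0.18 (n = 4) was close to the median SD of all genes. The fibulins Fbln2 and Fbln1, which bind elastic fibres and basement membranes, stood at 11.80 ± 0.29 and 11.41 ± 0.21 (SD, n = 4). Loxl1, which cross-links elastin, was at 10.58 ± 0.21 (SD, n = 4). In this list of other matrix proteins, 11 of 12 genes were detected on all 4 arrays, and Postn on 1. Of the matrix proteases and their inhibitors, 11 of 17 were detected. The brightest were the inhibitors Timp2 at 11.23 ± 0.22, Timp3 at 10.39 ± 0.23 and Reck at 9.86 ± 0.22 (SD, n = 4), followed by the sheddase gene Adam17 at 9.56 ± 0.24 (SD, n = 4).

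The transcription factors named by the chondrogenic and sclerotome list were split. Of 14 with a named probe, 9 were detected on all 4 arrays, or 64.3%, and 5, among them Tbx15, Barx2, Alx4 and Nfatc2, on none. Sox9 and Nkx3-2 had no named probe and were not analysed here. Pax1, which marks the sclerotome, read 11.29, 11.11, 11.42 and 11.45 on Rep1 to Rep4, a mean of 11.32 ± 0.16 (SD, n = 4) at rank 491. The 4 arrays were thus close for Pax1, 1.27-fold from lowest to highest. Ets2 stood at 11.67 ± 0.21 (SD, n = 4) at rank 373 and Trps1, a zinc finger repressor of cartilage and bone, at 10.12 ± 0.26 (SD, n = 4).

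Sox6, which acts in a pair with Sox5, had far less probe signal than the median gene, at 6.32, 6.59, 6.75 and 6.91 on Rep1 to Rep4. Its mean was 6.64 ± 0.25 (SD, n = 4) at rank 3556. Prrx1, a homeobox gene of limb and axial mesenchyme, read 8.69, 8.10, 8.72 and 8.69, so that Rep2 alone was low. Zfp219, which encodes a zinc finger partner of Sox9, went the other way from the matrix genes, at 10.66, 10.70, 10.25 and 10.05. The last members, Tbx18 at 6.73 ± 0.22 and Eya1 at 6.07 ± 0.26 (SD, n = 4), were dim.

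**Figure D2:**
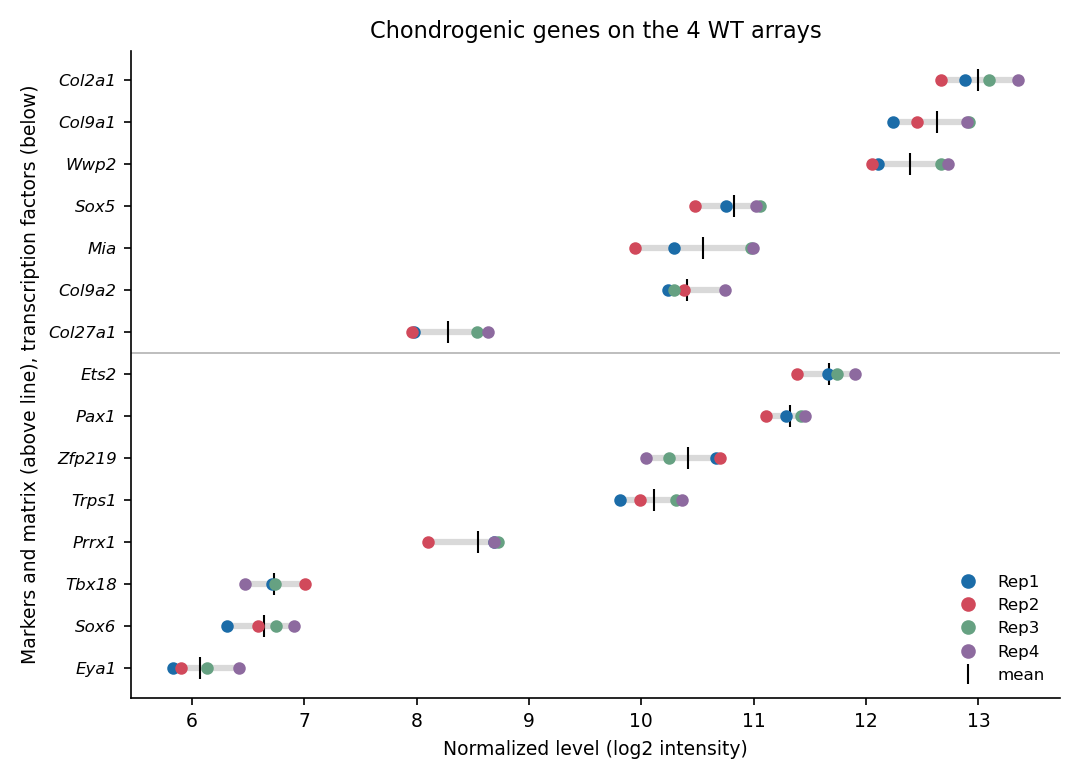
Normalized level (log2 intensity, horizontal axis) of 15 chondrogenic genes on each WT array, with a coloured point per array, a bar from the lowest to the highest array and a tick at the mean. Markers and matrix genes lie above the line and the other transcription factors below it, and the points of Rep3 and Rep4 lie to the right in most of the upper rows, as in Mia at 10.98 and 10.99 against 10.29 and 9.94.

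Genes of later cartilage and bone were present in part. In the hypertrophic and osteogenic list, 5 of 10 genes were detected on all 4 arrays, or 50%, slightly under the background of 55.7%. Mef2c, a driver of hypertrophy, stood at 8.92 ± 0.23 (SD, n = 4), the receptor gene Pth1r at 8.26 ± 0.23, osteopontin (Spp1) at 7.67 ± 0.32 and the phosphatase gene Alpl at 6.18 ± 0.33 (SD, n = 4). Runx2, the master factor of osteoblasts, was detected on 1 array, and Bglap (osteocalcin), Runx3 and Mef2d on none. Tendon and connective tissue genes were detected in 4 of 5 cases, or in 3 of 4 without Tcf4. Among them Scx, the transcription factor of tendon progenitors, stood at 9.74 ± 0.41 (SD, n = 4), with 10.17 on Rep4 the highest, and it was higher on Rep3 and Rep4 than on Rep1 and Rep2. Tcf4 encodes a basic helix-loop-helix factor that is widely made, also in the nervous system, and is not the connective tissue marker of that protein name, which is Tcf7l2. It stood at 13.16 ± 0.33 (SD, n = 4), with Rep2 at 13.66 and the other arrays between 12.94 and 13.04.

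Signalling components were detected unevenly between pathways. Of the bone morphogenetic protein and TGF-beta pathway, 17 of 19 genes were detected on all 4 arrays. The receptor gene Tgfbr1 stood at 12.20 ± 0.08, the shared mediator Smad4 at 12.06 ± 0.05, the ligand gene Tgfb2 at 11.88 ± 0.09 and the receptor gene Bmpr1a at 11.04 ± 0.05 (SD, n = 4). These 4 were among the steadier genes, since their SDs all lay below the median of 0.186 over detected genes. In the Wnt list 10 of 13 were detected, led by the antagonist Sfrp1 at 10.89 ± 0.17 and the nuclear effector Tcf7l2 at 10.60 ± 0.05 (SD, n = 4). The ligand Wnt5a stood at 9.02 ± 0.40 and the antagonist Frzb at 7.99 ± 0.25 (SD, n = 4).

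Hedgehog and Notch components were less often detected on all 4 arrays, in 3 of 9 and 2 of 6 cases, than the background of 55.7%. This did not hold for hedgehog when 3 arrays sufficed: 6 of its 9 genes then counted, or 66.7%, beside 58.1% of all named genes, and 3 of 6 Notch genes. The hedgehog genes detected were the effector Gli2 at 10.56 ± 0.20, the transducer Smo at 10.43 ± 0.27 and the ligand release gene Disp1 at 8.70 ± 0.25 (SD, n = 4). The receptor Ptch1 and the decoy Hhip were each detected on 3 arrays. For Notch, the receptor gene Notch4, known from endothelium, stood at 8.80 ± 0.45 and Numb at 5.47 ± 0.18 (SD, n = 4). Notch4 was highest on Rep1, at 9.43, and read 8.79, 8.45 and 8.54 on the other arrays.

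Of the fibroblast growth factor list, 8 of 11 were detected. Fgf13 stood at 9.50 ± 0.39, and it was highest on Rep2 at 9.95. The receptor Fgfr2 was at 8.17 ± 0.24, the ligand Fgf10 at 8.17 ± 0.14 and Fgfr3, the receptor that restrains chondrocyte division, at 7.87 ± 0.32 (SD, n = 4). Insulin-like growth factor genes were detected in 6 of 7 cases. Their binding protein genes Igfbp5 and Igfbp4 stood at 13.70 ± 0.16 and 12.11 ± 0.33 (SD, n = 4), at ranks 63 and 249, and Igfbp3 and the adaptor gene Grb10 at 8.47 ± 0.24 and 7.94 ± 0.21 (SD, n = 4).

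Neuronal transcripts were present as well. Of 28 neuron genes with a named probe, 22 were detected on all 4 arrays, or 78.6% beside the background of 55.7%, with a median level of 8.72. Dcx, a microtubule protein of migrating neurons, had deposited intensities of 3326 on Rep1, 4434 on Rep2, 1338 on Rep3 and 1653 on Rep4. Its normalized level was 11.26 ± 0.67 (SD, n = 4) at rank 521, and Rep2 exceeded Rep3 by 2.54-fold. The membrane protein gene Rtn1 stood at 11.22 ± 0.51, the growth cone genes Dpysl3 and Gap43 at 11.21 ± 0.72 and 11.06 ± 0.49, and Tubb2b, a neuronal tubulin, at 11.07 ± 0.68 (SD, n = 4).

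All 22 detected neuron genes had the same order of arrays: Rep2 was highest, Rep1 came next, and Rep3 and Rep4 lay below both. Over all detected genes, Rep2 was highest for 33.2%. Elavl4, an RNA-binding protein gene of neurons, read 9.38 on Rep1, 10.49 on Rep2, 8.30 on Rep3 and 8.38 on Rep4. It was 4.55-fold higher on Rep2 than on Rep3, and its rank moved from 2396 on Rep3 to 887 on Rep2. Tubb3, the neuronal tubulin often used as a marker, read 8.38, 8.78, 7.38 and 7.40. The list mean was 9.28 on Rep1, 9.67 on Rep2, 8.47 on Rep3 and 8.39 on Rep4, a range of 1.28 on the log2 scale or 2.42-fold. The neurofilament genes Nefl and Nefh and the motor neuron and interneuron factors Lhx3 and Onecut1 were detected on no array, while Nefm was detected on all 4 at 8.69 ± 0.71 (SD, n = 4). Of the remaining members, Onecut2 was detected on 3 arrays and Snap25 on 2.

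Neural progenitor genes were detected in 6 of 10 cases, or 60%. Sox2, a factor of neural stem cells, had levels of 7.71, 8.77, 7.12 and 7.13 on Rep1 to Rep4, so that Rep2 stood out, 3.14-fold above Rep3. Sox21 stood at 9.69 ± 0.45, Dbx1, a homeobox gene of spinal cord progenitors, at 8.81 ± 0.71 and the intermediate filament gene Nes at 8.16 ± 0.60 (SD, n = 4). Of the 6 genes 4 were highest on Rep2, while Nes read 8.68 on Rep1 and 8.64 on Rep2, and the dim Nkx6-2 was highest on Rep4, at 5.90 against 5.54 on Rep2. Pax6, Olig2, Dbx2 and Msi1, which also mark spinal cord progenitors, were detected on no array. Of the neural crest and glia list 3 of 8 were detected, below the background share. Tfap2b, a factor of the crest and of spinal interneurons, read 10.69, 10.95, 9.68 and 9.67, and Tfap2a stood at 7.89 ± 0.64 (SD, n = 4). S100b was dim at 5.56 ± 0.34 (SD, n = 4) and was the only one of the 3 that was highest on Rep3. Foxd3, Ets1, Gfap and Ngfr were among those detected on none.

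Genes of blood and vessels were highest on another array. All 5 erythroid genes with a named probe, all globins, were detected on all 4 arrays. The alpha globin Hba-a1 had deposited intensities of 2736 on Rep1, 1517 on Rep2, 1124 on Rep3 and 1360 on Rep4. In normalized levels Rep1 stood apart at 11.38, and the other 3 arrays lay between 10.38 and 10.46. The embryonic globin Hbb-y read 11.53, 10.39, 9.83 and 10.14, which is 3.27-fold from Rep3 to Rep1, and Hba-x, also embryonic, read 10.13, 8.81, 9.43 and 9.26. The adult globins Hbb-b2 and Hbb-b1 were dimmer, at 7.38 ± 0.28 and 7.17 ± 0.43 (SD, n = 4). All 5 were highest on Rep1, where the list mean was 9.67 against 8.80, 8.81 and 8.80 on Rep2 to Rep4. Over all detected genes, Rep1 was highest for 21.1%. Near-identical globin genes can share a probe, so the split of signal among them is uncertain.

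Endothelial genes were detected in 5 of 8 cases. Robo4, a receptor of vascular endothelium, had deposited intensities of 444.9, 80.8, 20.8 and 25.7 on Rep1 to Rep4. Its normalized level ran 11.2-fold from Rep3 to Rep1, and its SD of 1.63 (n = 4) was the largest of the 4510 genes. Emcn, the endothelial sialomucin gene, read 8.95 on Rep1 and between 7.23 and 7.52 elsewhere. Egfl7 stood at 6.74 ± 0.41 (SD, n = 4), and Fli1, a factor of blood and endothelium at 7.03 ± 0.55 (SD, n = 4), was lowest rather than highest on Rep1. Pecam1 was detected on 3 arrays, and Erg and Ets1 on none.

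Macrophage and leukocyte genes were mostly below detection. Of 11, only Dab2, an endocytic adaptor gene that is not restricted to these cells, was detected on all 4 arrays, at 11.44 ± 0.10 (SD, n = 4). That share of 9.09% is far below the background of 55.7%. The pan-leukocyte gene Ptprc, Lyz1, Itgam and Cd74 were detected on none, and Csf1r, Lyz2 and C1qa on Rep1 only. C1qb was detected on Rep1 and Rep2, and Cd68 and Lcp1 on every array but Rep3. Of the platelet list, 2 of 4 were detected, Thbs1 at 7.39 ± 0.20 and Nfe2 at 5.75 ± 0.28 (SD, n = 4), and the platelet integrin Itga2b and Gp1bb on none. The skeletal muscle list had 1 named probe, of Chrna1, which was detected on 2 arrays.

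The notochord list was detected in 3 of 6 cases, through Cd24a at 8.93 ± 0.72 and the keratins Krt8 and Krt18 at 7.74 ± 0.46 and 7.42 ± 0.53 (SD, n = 4), which epithelia also make. Its defining factors had no named probe. Both keratins were highest on Rep1, whereas Cd24a was highest on Rep2, at 9.82. The surface epithelium and gut list was detected in 4 of 5 cases, with Cldn4 at 8.29 ± 0.35 and Krt15 at 6.80 ± 0.43 (SD, n = 4) beside the same keratins, and all 4 were highest on Rep1. Of the hepatic list 3 of 5 were detected, with Apoe at 7.32 ± 0.40 the brightest. Of sex-linked genes, Xist, the transcript of the inactive X chromosome, read 7.25, 6.15, 6.06 and 6.09 on Rep1 to Rep4, and the Y-linked genes Ddx3y, Eif2s3y, Kdm5d and Uty were detected on none.

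**Figure D3:**
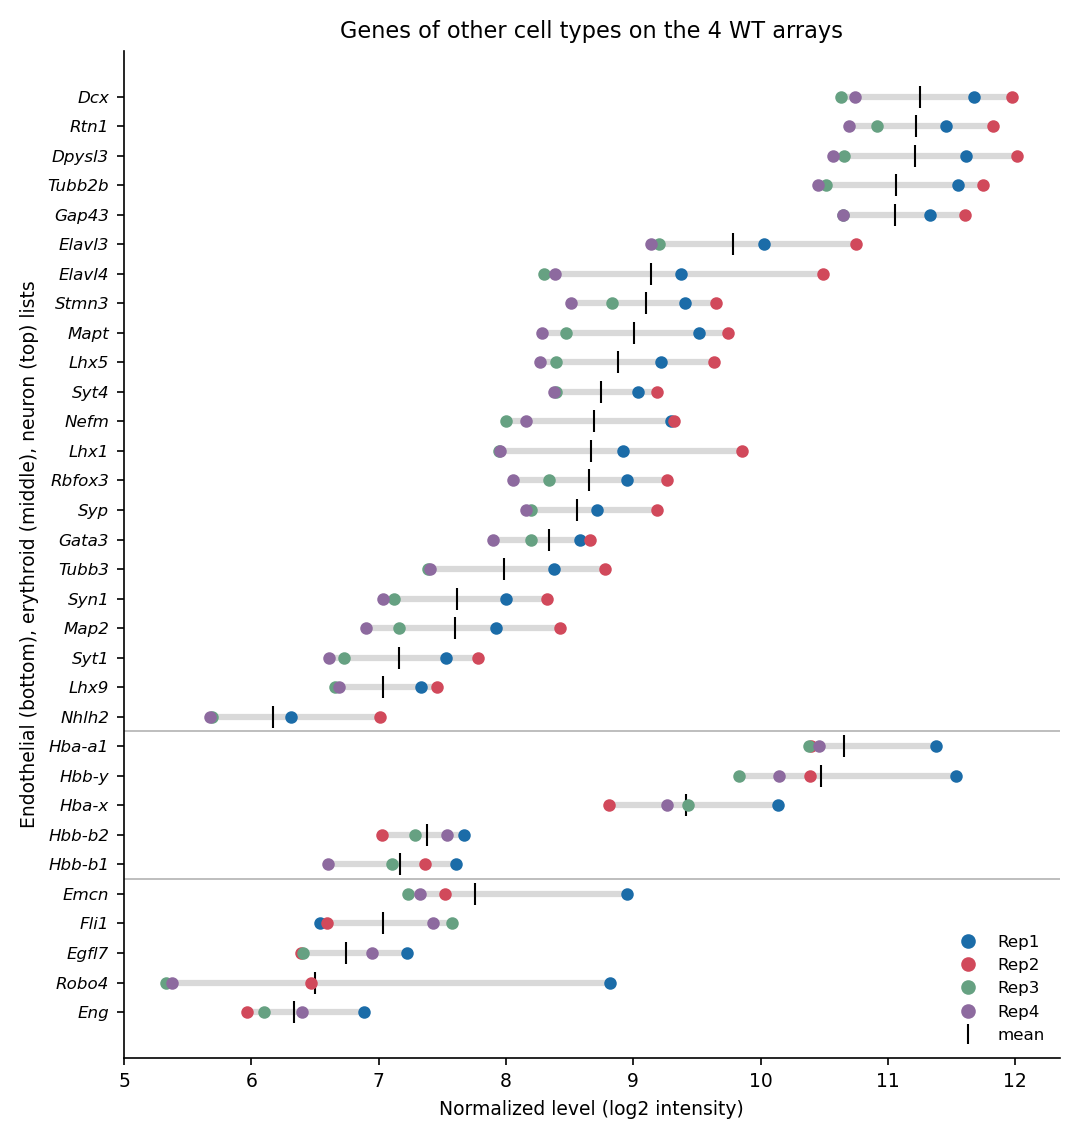
Normalized level (log2 intensity, horizontal axis) of the detected genes of the neuron list (22, top), erythroid list (5, middle) and endothelial list (5, bottom) on each WT array, with a coloured point per array, a bar from the lowest to the highest array and a tick at the mean. In every neuron row Rep2 is rightmost and Rep1 next, whereas Rep1 is rightmost in all 5 erythroid rows and in 4 of the 5 endothelial rows.

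The same normalized values were also summed as intensities over the detected genes of a list, where bright genes weigh most. The contrasts were alike, which adds no separate evidence. The neuron list summed to between 12089 on Rep4 and 29330 on Rep2, a 2.43-fold range. The erythroid list summed to 7153 on Rep1 and to between 3228 and 3439 on the others, and the endothelial list to 1305 on Rep1 and to between 514.5 and 582.0. The cartilage matrix list ran from 14675 on Rep2 to 22198 on Rep4, a 1.51-fold range. Neuron genes were thus high where cartilage matrix genes were low, on Rep1 and Rep2, and the part of either in the other was not tested.

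Genes used by all cells made up the top of the range. Of the 25 brightest named genes, 15 encode ribosomal proteins and 4 are transcribed from the mitochondrial genome. Ubb, a polyubiquitin gene, was brightest on every array at 15.43 ± 0.06 (SD, n = 4). It was followed by Rpl41 at 15.22 ± 0.02, Rps27a at 15.21 ± 0.08, and the mitochondrial ND4 at 15.12 ± 0.06 (SD, n = 4). Other ribosomal protein genes among them were Rps20, Rpl24, Rps29, Rps14, Rpl37, Rpl23, Rpl27a, Rpl38, Rps26 and Rpl19, and the other mitochondrial ones were CYTB, ND1 and ATP6. The remainder were the elongation factor Eef1g, the chaperones Hspa8 and Ppia, the tubulin Tubb5 and the RNA-binding protein gene Ybx1. All 25 lay at or above 14.49. Many of these genes have processed pseudogenes, so their probes can also read close copies.

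In all, 71 of 75 ribosomal protein genes were detected on all 4 arrays, with a median level of 13.89, and 47 of them were among the 100 brightest. Rps19 was detected on 3 arrays, and Rps18, Rpl18 and Rpsa on none. Every ribosome holds these proteins, so an undetected probe in these data does not show that a transcript was absent. Mitochondrial respiration genes were detected in 52 of 54 cases, with a median of 11.24, and chaperones in 12 of 14, with a median of 12.06. Proteasome and ubiquitin genes were detected in 43 of 49 cases, splicing and ribonucleoprotein genes in 51 of 63, and translation factors in 33 of 38.

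Among the glycolysis and hypoxia genes, 14 of 17 were detected, led by Gapdh at 14.21 ± 0.08, Tpi1 at 12.70 ± 0.15 and Ldha at 12.55 ± 0.19 (SD, n = 4), which work in glycolysis. Tubulins and actins were detected in 16 of 18 cases, with Actb at 14.48 ± 0.13 (SD, n = 4), and high mobility group and chromatin genes in 15 of 20, with Hmgn1 at 13.95 ± 0.10 (SD, n = 4). Cell cycle genes were detected on all 4 arrays in 17 of 18 cases. The centromeric histone gene Cenpa stood at 12.70 ± 0.20, the cyclin D gene Ccnd1 at 12.61 ± 0.15, the helicase subunit Mcm7 at 11.28 ± 0.14 and the mitotic cyclin Ccnb1 at 10.64 ± 0.15 (SD, n = 4). Of 7 genes of the dissociation and stress response, 5 were detected, with Klf6 at 10.60 ± 0.21 and Btg1 at 10.44 ± 0.26 (SD, n = 4), whereas the immediate early genes Junb and Nr4a1 were detected on 1 array and none.

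Hox genes, which give cells their position along the body axis, were detected in 9 of 16 cases, or 56.2%, at the background share. Hoxb2 stood at 10.30 ± 0.45, Hoxa7 at 10.23 ± 0.19, Hoxd4 at 9.76 ± 0.25 and Hoxd8 at 8.11 ± 0.20 (SD, n = 4). Hoxb2 was highest on Rep2, at 10.87, and Hoxa7 lowest there, at 9.98. Posterior genes were split, with Hoxd13 detected on all 4 arrays at 7.59 ± 0.25 (SD, n = 4) and Hoxa13, Hoxd11 and Hoxd12 on none, as were the more anterior Hoxa3 and Hoxb7.

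The arrays were alike over the whole transcriptome but not equally so. Over the 18627 detected probes, Pearson's r was 0.994 between Rep3 and Rep4, 0.987 between Rep1 and Rep2, 0.985 and 0.986 for Rep1 with Rep3 and Rep4, and 0.974 and 0.976 for Rep2 with Rep3 and Rep4. These values are across probes, which are not independent replicates. The median absolute difference was 0.120 between Rep3 and Rep4 and 0.287 between Rep2 and Rep3. The pair of Rep2 and Rep3 differed by over 1 on the log2 scale at 3.62% of probes, and that of Rep3 and Rep4 at 0.0644%. At most 0.199% of detected probes carried identical intensities in any pair, so no array's values were a copy of another's. Whether 2 arrays shared an RNA source was not tested.

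The median SD over the 4 arrays was 0.193 over probes and 0.186 over genes. It went down with level, from 0.229 in the 902 dimmest genes to 0.150 in the 902 brightest. An SD above 0.5 was found in 180 genes and above 0.7 in 48. Of the 180, Rep2 was the highest array for 131, Rep1 for 29, Rep3 for 15 and Rep4 for 5. Over all detected genes, Rep2 was highest for 33.2%, Rep1 for 21.1%, Rep3 for 24.5% and Rep4 for 21.2%. Of the 48, Rep2 was highest for 40 and Rep1 for 8.

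**Figure D4:**
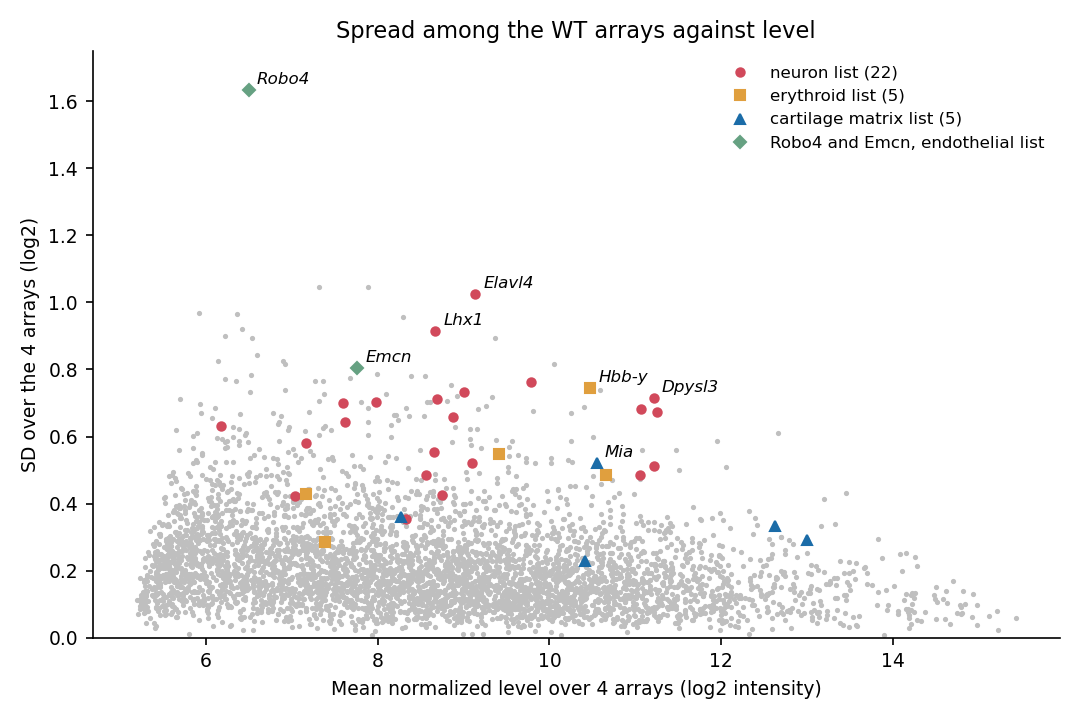
SD over the 4 WT arrays (log2, vertical axis) against mean normalized level (log2 intensity, horizontal axis), with a grey point for each of the 4510 detected genes and the neuron, erythroid and cartilage matrix lists marked. Most genes lie below 0.5, neuron genes such as Elavl4 (1.02) and Lhx1 (0.91) lie above most genes of like level, and the endothelial gene Robo4 has the highest SD, 1.63. Robo4 was near the detection minimum on Rep3 and Rep4.

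The 15 most variable genes above the median level included 6 of the 22 detected genes of the neuron list. Among the 15 were Elavl4, Lhx1, Rnd2, Cadps, Elavl3, Nol4, Hbb-y, Map1b, Mapt, Cd24a, Cracd, Dpysl3, Nefm and Dbx1. Lhx1, a factor of spinal interneurons, read 8.92, 9.86, 7.94 and 7.95 on Rep1 to Rep4. Rnd2, a small GTPase gene of migrating neurons, read 9.68, 10.47, 8.46 and 8.85. Rep2 was the highest array for 14 of the 15 and Rep1 for Hbb-y. Of the 100 most variable such genes, 15 stood on the neuron list, 3 on the erythroid list and 1, Mia, on the cartilage matrix list, and 74 were on no list. These 3 lists hold 22, 5 and 5 detected genes, and not all of those lie above the median level. The counts therefore do not order the lists by spread.

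The steadiest genes were Rps16, 0610030E20Rik, H4c6, Mrpl18 and Rdh10, each with an SD of 0.01 (n = 4). Rps16, a ribosomal protein gene, read 13.89, 13.90, 13.89 and 13.89. Rdh10, which makes the precursor of retinoic acid, read 9.23, 9.22, 9.21 and 9.24. How steady the bright housekeeping lists were depended on the scaling, since quantile normalization makes the bright ends of the arrays alike. The mean over the ribosomal protein list ranged over 0.0888 on the log2 scale after quantile normalization and over 0.200 after median centring, and that over the glycolysis and hypoxia list over 0.120 and 0.335. The neuron list ranged over 1.28 and 1.52 under the same scalings, the cartilage matrix list over 0.644 and 0.550, and the soft tissue collagens over 0.485 and 0.307.

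**Figure D5:**
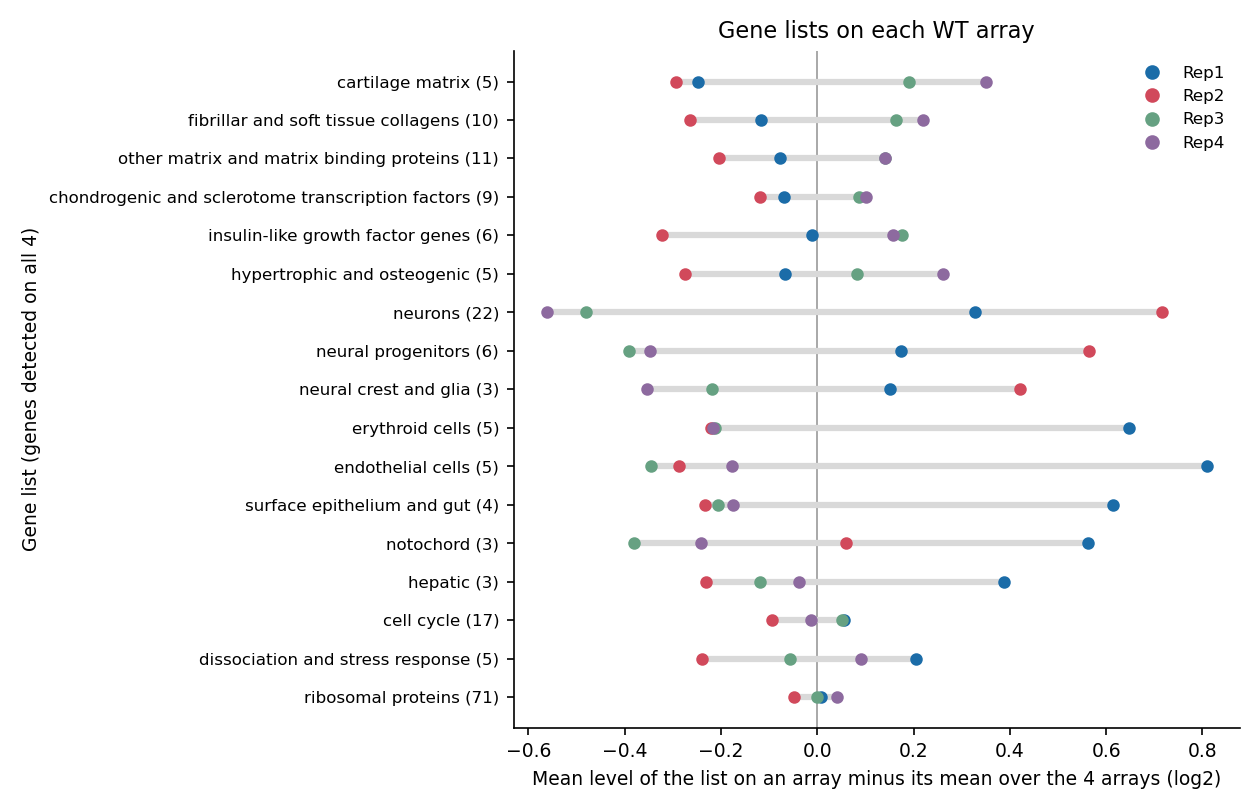
Mean level of each gene list on a WT array minus its mean over the 4 arrays (log2, horizontal axis), with a coloured point per array, a bar from the lowest to the highest array and the number of detected genes in brackets. Neuron, progenitor and crest lists are highest on Rep2, erythroid, endothelial, epithelial, notochord and hepatic lists on Rep1, and cartilage matrix and collagen lists on Rep4, and ribosomal proteins range over 0.0888 under this quantile normalization. The notochord and epithelial lists share Krt8 and Krt18, and the other notochord gene, Cd24a, was highest on Rep2.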

How the data were processed

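Total RNA of sorted cells was labelled and hybridised to Illumina WG-6 arrays. The array version in the labels differs from that in the methods. The authors deposited background-subtracted intensities from GenomeStudio (no version stated), which can be negative. The deposited detection p-value column rises with brightness from 0 to 1, so 1 minus its value was taken as the p. The authors' deposited normalized values are log2 intensities centred on each array and probe, so they hold no levels and were used only as an alternative for spread.

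Intensities of the 4 WT arrays were corrected with normexp from the detection values, raised by an offset of 16, and quantile-normalized over these arrays on the log2 scale (limma 3.58.1, R 4.3.3). Python 3.11.15, pandas 2.3.3, numpy 2.4.6 and matplotlib 3.10.9 did the rest. Probes carried no gene names. The 2 deposited tables were joined through equal rows of 8 values, which linked 38432 of 46643 probes. Zero-padded numbers of at least 11000 in the row names were taken for NCBI gene numbers, as 84.2% of them belong to mouse genes, which named 8407 probes of 7111 genes. A further 991 genes had rows that matched several probes, none of them detected. Each gene was represented by its brightest detected probe. The procedure was tested on simulated data. Arrays lying apart from the other 3 were found with Dixon's criterion.

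Named genes were the 25 brightest, every measured member of the marker, cartilage matrix and transcription factor lists, and up to 4 brightest detected members of each other list. Up to 4 undetected members of lists of other cell types, the 15 most variable genes above the median level and the 5 steadiest were added. Members, lists and this rule were chosen with earlier results of these data known. Other genes were named after their values were seen, such as those detected on some arrays only. A few genes that the rule names are not reported here. No sequences, coordinates or tests between groups were used. Alternatives were a detection minimum of 0.99, detection on at least 3 arrays, an offset of 50, median centring, floored intensities, the mean over a gene's probes, and leaving out each array.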

Additional observations from a re-analysis of the deposited data

Results flagged for a closer look

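In a group of 4 arrays, a value was singled out when the gap from the highest or lowest array to its nearest neighbour took more of the whole range than Dixon's critical value allows. Chance does so in about 1 of 20 independent groups. Such a gap was found for 16 of 169 named genes and 3 of 35 gene lists. All of these come from the same 4 arrays, some lists share genes, and some genes were named for their SD. The counts can therefore not be set against that rate. The gap says nothing of size: the values for Rps27a, Tubb5 and Rps16 lie within 0.29 of each other on the log2 scale.

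Rep1 stood alone on the high side in several. This gap was 0.9894 of the range for the mean of the erythroid list, 0.8556 for the endothelial list and 0.9314 for the surface epithelium and gut list. The endothelial mean includes Robo4, at 8.82 on Rep1 against 6.47, 5.33 and 5.37 on Rep2 to Rep4. It also includes Fli1, which was lowest on Rep1. Egfl7 read 7.22 on Rep1 and 6.95 on Rep4, against 6.39 and 6.40 on Rep2 and Rep3. The endothelial gap is thus not a trait shared by the genes of that list, and it was not computed without Robo4. Among genes of these and related lists the gap was 0.9224 for Hba-a1, 0.8323 for Emcn, 0.9212 for Krt8, 0.8393 for Apoe and 0.9258 for Xist, all highest on Rep1. Tubb5 was also highest on Rep1, with a gap of 0.9171. Cct4, a chaperonin subunit, was lowest on Rep1 with 0.8868.

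Rep2 stood alone in others. The share of signal from the 100 brightest probes was lowest on Rep2, with a gap of 0.9429. Levels were lowest on Rep2 for Rps27a at 0.8837, Prrx1 at 0.9409 and Mef2c at 0.9225. They were highest on Rep2 for Tcf4 at 0.8696, Ptma at 0.8404, Hoxd8 at 0.8326 and Rps16 at 1. Quantile normalization gave Rps16 the same value of 13.8904 on Rep1, Rep3 and Rep4, and this tie fixed its gap at 1. On Rep3, ATP6 was lowest with a gap of 0.9114 and Adam17 highest with 0.9325.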

How the results depend on the processing

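No count of detected probes or genes moved by over 1.5 times. Probes detected numbered 14905 at a detection minimum of 0.99, 20008 with detection on at least 3 arrays and 18901 to 19144 with 1 array left out. Named genes numbered 3921, 4711 and 4545 to 4591. The median SD was 0.203 with median centring, 0.153 with an offset of 50 and 0.225 with floored intensities or the authors' values. With 1 array left out it ran from 0.150, without Rep2, to 0.196. Detection on at least 3 arrays gave 6 hedgehog genes, which put that list above instead of below the share of all named genes, and 3 macrophage genes, and a minimum of 0.99 gave 1 Notch and 1 platelet gene.

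The neuron, erythroid, endothelial and cartilage matrix lists were highest on the same array under quantile normalization, median centring and the authors' values. The lowest array was not stable: for cartilage matrix it was Rep2 under quantile normalization and Rep1 under both alternatives. With median centring the neuron range was 1.52 on the log2 scale and the progenitor range 1.25. In an alternative chosen after seeing the data, leaving out Rep1 took the erythroid range from 0.868 to 0.00923 and the endothelial range from 1.15 to 0.167. These are ranges of list means, in which opposite differences between genes cancel. On Rep2 to Rep4, Hbb-y read 10.39, 9.83 and 10.14 while Hba-x read 8.81, 9.43 and 9.26. On the same arrays Robo4 read 6.47, 5.33 and 5.37 while Fli1 read 6.59, 7.58 and 7.43. Leaving out Rep2 took the neuron range from 1.28 to 0.889 and the progenitor range from 0.956 to 0.566. Each time the array left out was the highest for these lists, so the range had to fall. Ranks under the authors' values could not be given, since these hold no levels. No paired analysis was possible because 1 group was described. Signal over background limits the dim genes, and a gene with no detected probe may still be transcribed.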
